A study of Gallus gallus with 3 samples.

Results

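The type I and the type II vestibular hair cell of the chicken embryo were compared gene by gene, with 1 library of 1 cell for each type. Genes that carry a symbol and had at least 100 estimated reads in either cell were compared, 1305 of the 15097 genes with a symbol and of 30108 genes in all. In this comparison 29 genes (2.22% of those compared) were at least 2-fold higher in the type I hair cell and 7 genes (0.536%) were at least 2-fold higher in the type II hair cell, on CPM (estimated reads scaled to a library total of 1000000). This split depended on the scaling, with 18 and 14 genes after the median ratio was set to 1, 13 and 14 with TMM factors (which match the libraries after trimming extreme genes), and 3 and 23 after each ratio was set against genes of like level. The type I side was led by the lysosomal acid phosphatase gene *ACP2* and the mechanotransduction channel gene *TMC1*, each about 3-fold higher, and nearly all of its genes had few reads. On the type II side 5 of the 7 genes had over 1000 reads, among them *UNC119* and the synaptic vesicle gene *SYNGR1*. This was near the share among all genes compared, 866 of 1305, and unlike the few reads of the type I side. The remaining 1269 genes (97.2%) lay within 2-fold of each other.

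Both cells came from semicircular canal cristae of chicken (*Gallus gallus*, Isa Brown) embryos, which were briefly anaesthetized with halothane before dissection. No test drug or genetic treatment is stated for these cells. The type I hair cell was taken at embryonic day (E) 20 and the type II hair cell at E19, so that cell type, age and embryo cannot be told apart. The eggs were of both sexes, and the sex of these embryos and the position of the cells in the crista are not stated. Each was identified by its whole-cell currents, namely the presence (type I) or lack (type II) of the low-voltage-activated K+ current *I*KL, and its cytoplasm was then drawn into the patch pipette and amplified by template switching (patch-sequencing, Patch-seq). A library of whole cristae, pooled from 22 embryos at E16, served only as a side readout, since it holds every cell type of the organ. Its cDNA and library kits also differed from those of the hair cells. Cell mix, age and preparation therefore cannot be told apart where CPM in whole crista is set beside the hair cells. With 1 cell a type there was no replicate and hence no test, and the interval printed with a ratio is an exact 95% counting interval that covers counting error only, because amplified reads are not independent molecules. More cells had been selected for sequencing, and the paper left out the others for human DNA contamination or poor transcript counts. The paper also warns that weakly expressed transcripts might be underrepresented in such cells. Within these limits the ratios describe a pair of cells and not the cell types.

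Vestibular hair cells turn deflection of their hair bundle into a receptor potential through channels at the tips of the stereocilia, and release glutamate from ribbon synapses. Type I hair cells are enclosed by an afferent calyx and carry *I*KL, whereas type II hair cells are contacted by bouton endings. The types share most of their machinery, such as the transduction channel, the L-type Ca2+ channel of the synapse and EF-hand Ca2+ buffers.

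The hair cell libraries held 10779664 (type I) and 11943061 (type II) estimated reads against 67428006 in whole crista, so 100 reads correspond to 9.28 and 8.37 CPM in the hair cells. At least 1 read was found for 2340 and 2381 of the 30108 genes, against 18001 in whole crista, and for 1975 genes in both hair cells. Most genes were thus unread in the hair cells, so that a relative without a read, as named below, was the usual case. Mitochondrial genes took 5.50% of reads in type I and 7.38% in type II. Every one of the 1305 genes compared had reads in both cells, the lowest value being 32 reads, and the read numbers of both cells ranked the genes almost alike (Spearman's rho 0.991 across 1305 genes, which share library preparation and gene length and are not replicates). Whether cDNA was shared between the libraries was not tested. The W-linked genes, which only female chickens carry, had 29 reads in type I and 3 in type II, of which 28 and 3 belonged to *ATP5F1AW*. Of the 14 W-linked identifiers 12 had no read in either cell, and the sex of the embryos was not tested.

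Of the markers that hair cells are known for, all 4 used here were read in both cells. *OCM1*, an oncomodulin gene whose product buffers Ca2+, had 98881 reads in type I and 80830.5 in type II (ratio 1.36). The KV1.8 gene *KCNA10* had 7529 and 7982 reads, a ratio of 1.04 on CPM and of 0.928 on the deposited TPM. TPM also divides by an effective gene length, which here differed between the libraries (2500 in type I, 2300 in type II). The ratio of *KCNA10* changed side also under other scalings. *CACNA1D*, which encodes the pore of the L-type Ca2+ channel, was lower in type I, with 7831 against 12805 reads (ratio 0.678). Only *TMC1* of the 4 was 2-fold apart. Among 24 further identifiers of hair cell genes, 8 had a read in type I and 7 in type II, whereas 16, *MYO7A*, *ESPN*, *GFI1* and *POU4F3* among them, had no read in either cell. Of this list 5 passed the read minimum and none was 2-fold apart. These included *USH1C*, with 11702 reads in type I and 11726 in type II, and *MYO6*, with 1394 and 1833. A gene without a read can still be present up to the limit set by 3 reads, 0.278 CPM in type I and 0.251 in type II, which covers counting error only and not RNA lost at capture or amplification.

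Genes known to tell the types apart in mouse or chick were of little help. On the type I side, *KCNMA1*, the BK channel gene, had 1176 reads in type I and 1565 in type II, *SPP1* had 2 and 1, and *ADAM11* had none. On the type II side, *KCNAB1*, a KV β-subunit, had 13477 and 15721 reads (ratio 0.95). *MAPT*, under the read minimum with 65 and 33 reads, was higher in type I, against its listing (ratio 2.18, 1.41 to 3.43). *ANXA4* had 2 and 3 reads and *SNAP25* 0 and 4, while *SOX2*, *CALB2*, *KCNA4* and *KCNJ2* had no read in either cell. The paper, in contrast, lists *SOX2* as found in both cells. None of the genes of this paragraph was both above the read minimum and 2-fold apart, so the identity of the cells rests on their currents.

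Transcripts of other cell types did not separate the cells by 2-fold. The supporting cell genes *GJB6* (15802 and 17844 reads), *SOX9* (5858 and 5148), *SOX10* (2612 and 3120) and *AGR3* (2816 and 4519) were abundant in both. The summed level of the 14 supporting cell genes in the files was 2521 CPM in type I and 2573 in type II, with 8 of the 14 unread in either, and that of 7 mesenchyme genes 967 and 651, carried by *COL1A1* (7113 and 5292 reads) and *COL1A2* (3221 and 2404) with *COL3A1* and *DCN* at 0. Neuronal genes amounted to 0 and 4 reads, the 4 being those of *SNAP25* given above among type II markers. Globin, endothelial and immune cell genes amounted to 0 in both cells. In whole crista the summed levels of these lists and of the neuronal one were 187 to 5856 CPM. What part RNA of other cells had in the ratios was not tested.

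Ratios were not centred on 1. Their median on the log2 scale was 0.16, with 850 genes above and 455 below 1 and a standard deviation of 0.41 over genes. They also moved with the level of a gene. Among the 204 genes whose larger read number was from 100 to under 300 the median log2 ratio was 0.52, among 235 genes from 300 to under 1000 reads 0.32, among 515 genes from 1000 to under 10000 reads 0.14, and among 351 genes with 10000 reads or more it was -0.077. Over genes, the ratio and the mean level had a Spearman's rho of -0.49, against -0.13 for gene length and -0.034 for the level in whole crista, with reads of the same libraries on both sides. The share of genes at least 2-fold higher in type I fell along with it, from 12.7% in the lowest class, which held 26 of the 29, to 0.851%, 0.194% and 0. That of the type II side was between 0.426% and 0.583%, but rested on 1, 1, 3 and 2 genes. Classed by the geometric mean of both read numbers, the type II share was 2.44% under 100 reads and 0 from 100 to under 300. In the higher classes it was then 0.467%, 0.938% and, at 10000 reads or more, 0.

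**Figure D1:**
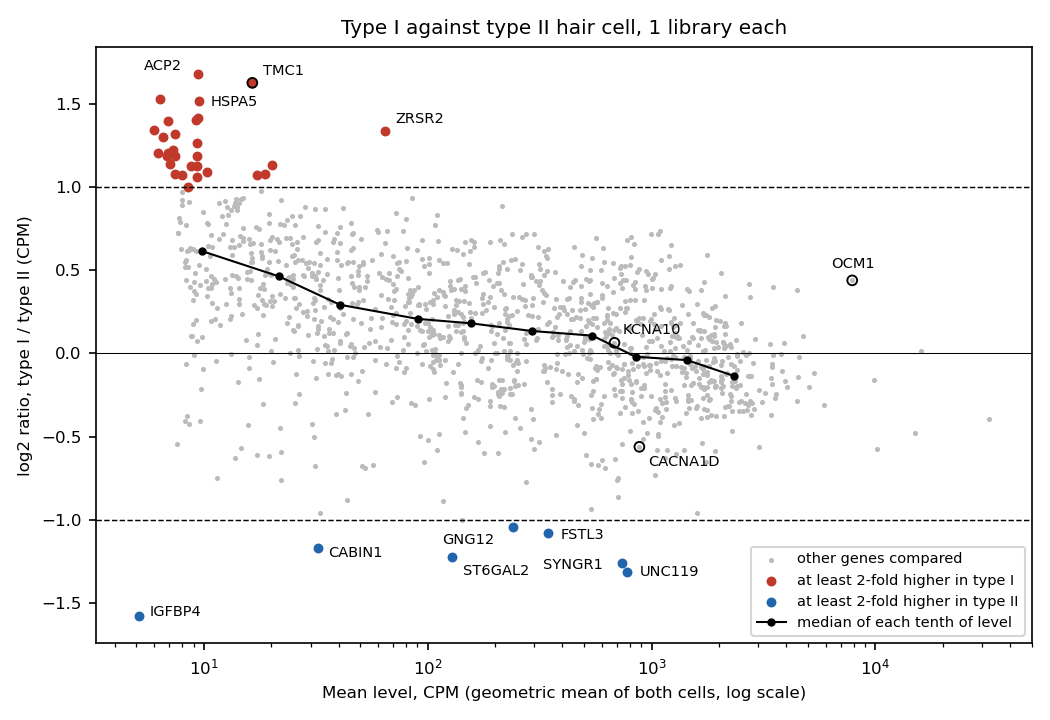
Each point is 1 of the 1305 genes compared, with its mean level in both cells (CPM, log axis) against the log2 ratio of type I to type II; the line joins the medians of 10 equal groups by level and dashed lines mark 2-fold. The medians decline from 0.62 in the lowest to -0.14 in the highest group, and the genes at least 2-fold higher in type I crowd at the low end. Those higher in type II spread from group 1, the lowest, to group 8 of the 10.

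When genes were split by level into 10 equal groups and each ratio was set against the median of its group, 3 of the 29 type I genes were still 2-fold apart, *ACP2*, *TMC1* and *ZRSR2*, and all 7 type II genes were, among 23 genes on that side. The standard deviation of the log2 ratio was 2.62 times its counting expectation in the class under 300 reads and 19.4 times in that of 10000 reads or more, and the counting interval excluded a ratio of 1 for 83.7% of all genes compared. Most genes thus passed that mark. The interval lay wholly beyond 2-fold for 6 type I genes (*ACP2*, *TMC1*, *MPZL1*, *HSPA5*, *TST* and *ZRSR2*) and for 4 type II genes (*UNC119*, *SYNGR1*, *ST6GAL2* and *FSTL3*).

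**Figure D2:**
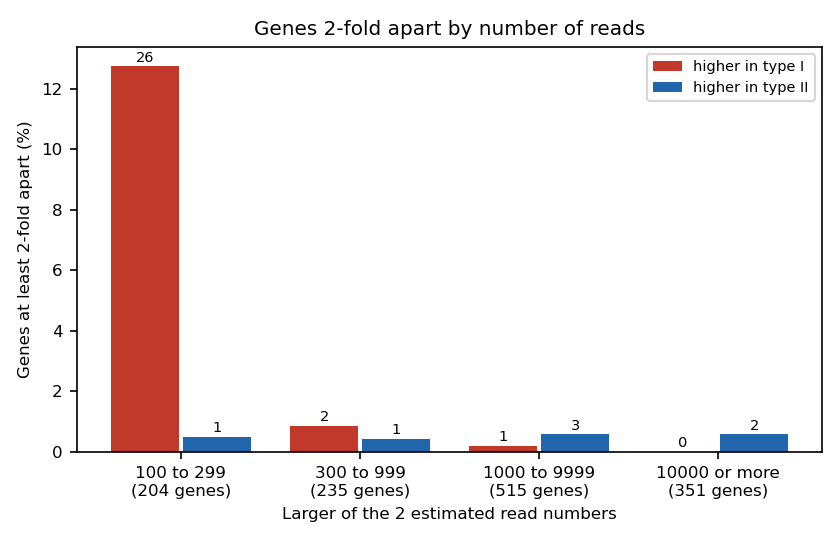
Bars give the percentage of genes at least 2-fold higher in type I (red) or type II (blue) in classes of the larger of both read numbers, with the number of genes above each bar. In the class under 300 reads 26 genes were on the type I side and 1 on the type II side, and from 1000 reads upward 1 gene and 5 genes.

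*TMC1* (Z, 36363375 to 36486990, GRCg7b), a pore-forming subunit of the mechanotransduction channel in mouse hair cells, had 312 reads in type I and 112 in type II. Its level was thus 28.9 and 9.38 CPM, a ratio of 3.09 (counting interval 2.48 to 3.87), and 2.95 on TPM. In whole crista it stood between the cells, at 17.6 CPM. The other 5 *TMC* genes in the files had no read in either hair cell, like 188 of 212 ion channel and auxiliary subunit genes. Partners of the channel fared likewise, since *TMIE*, *LHFPL5*, *CIB2*, *PCDH15* and *CDH23* were unread and only *CIB3*, a Ca2+-binding channel partner, was abundant, with 2301 and 1818 reads (ratio 1.40). Apart from *TMC1*, none of the 13 ion channel and auxiliary subunit genes compared was 2-fold apart. Their median log2 ratio was -0.074, and it was below 0 under every scaling tried.

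Another 4 type I genes are known for work in the endoplasmic reticulum (ER) or in traffic to and from it. *HSPA5* (chromosome 17, 10199762 to 10203834), the ER chaperone BiP, had 172.7 reads in type I and 67 in type II, a ratio of 2.86 (2.15 to 3.85), a fractional number of reads, as estimated counts have where reads match more than 1 gene. *SEC23B*, of the COPII coat that leaves the ER, had 121 and 59 reads (ratio 2.27), and *COPA*, the α-subunit of the COPI coat that returns to it, 125 and 66 reads (2.10). *ERAP1*, an ER aminopeptidase that trims peptides, had 113 and 57 reads (2.2). *DNAJC12*, a cytosolic co-chaperone of the HSP40 family, had 269 and 142 reads (2.10).

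Companions of these genes that passed the read minimum did not reach 2-fold. Of the coat identifiers, 4 of 9 for COPI and 8 of 11 for COPII had no read in either cell. Of the COPI coat, *COPB1* had 8279 and 8829 reads (ratio 1.04) and *COPG2* 6528 and 6469 (1.12). In the COPII coat, *SEC13* had 167 and 197 reads (0.939) and the GTPase gene *SAR1B* 1019 and 1581 (0.714). Folding enzymes of the ER lay between, as *PDIA4* (218 and 153 reads, ratio 1.58), *PDIA6* (300.1 and 243, 1.37) and *P4HB* (269 and 186, 1.60) were higher in type I by less than 2-fold, while the lectin chaperone gene *CANX*, with 25343 and 34488 reads, had a ratio of 0.814. *HSP90B1*, which encodes another abundant ER chaperone, had 1 and 4 reads only, against 1248 CPM in whole crista. Among all 25 chaperone genes compared, 17 had ratios above 1, their median log2 ratio was 0.37, or 0.21 relative to the median of all genes, and 2 were 2-fold apart.

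Lysosomal genes were also found. *ACP2* (chromosome 5, 22675668 to 22684541), the lysosomal acid phosphatase, had the highest ratio of all genes compared, with 182 reads in type I and 63 in type II, 16.9 and 5.28 CPM, and a ratio of 3.20 (2.39 to 4.33). *GGH*, the γ-glutamyl hydrolase that shortens folates in lysosomes, had 152 and 74 reads (ratio 2.28), and *GPR137B*, a membrane protein of human lysosomes, 121 and 51 (2.63). The lysosomal proteases did not follow as a group. *CTSC* lay just under the threshold with 273 and 154 reads (1.96), but *CTSB* (24955 and 31517 reads, 0.877), *CTSD* (6890.4 and 7396, 1.03) and *CTSZ* (4750.2 and 4346, 1.21) were near 1.

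Among surface and signalling genes of the type I side, *MPZL1* (chromosome 1, 91687770 to 91725260), a transmembrane protein of the immunoglobulin family, had 117 and 45 reads (ratio 2.88, 2.03 to 4.16). *IGFBP5*, which encodes a secreted protein that binds insulin-like growth factors, had 293 and 154 reads (2.11), and *IL1RAP*, the co-receptor of interleukin-1, 116 and 61 (2.11). *ST14*, the epithelial membrane protease matriptase, had 140.0 and 71 reads (2.18). *PPP1CA*, a catalytic subunit of protein phosphatase 1, had 113 and 54.5 reads (2.30), also not whole, and its sister genes were unread.

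*ZRSR2* (chromosome 1, 121988865 to 122005064) was the only type I gene with over 1000 reads. It encodes a factor that recognises the 3′ splice site of minor, U12-type introns in human cells. It had 1102 reads in type I and 484 in type II, equal to 102 and 40.5 CPM, and a ratio of 2.52 (2.26 to 2.81). At this depth its interval was the narrowest of the 29, and its level in whole crista, 34.0 CPM, was below that of both cells. The list of RNA binding and splicing genes did not hold *ZRSR2*. Of its 26 genes compared none was 2-fold apart, and their median log2 ratio of 0.058 fell below 0 under TPM, median, TMM and level scaling. *GTF3C5*, a subunit of the RNA polymerase III factor TFIIIC, had 163 and 85 reads (2.12), and *EIF2S2*, the β-subunit of initiation factor eIF2, 130.0 and 72 reads (2.0), the ratio closest to the threshold.

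Mitochondrial and metabolic genes of the type I side were *TST*, the sulphur transferase rhodanese (166 and 69 reads, ratio 2.67), *MRPL40*, of the large mitochondrial ribosomal subunit (156 and 72, 2.40), and *PFKP*, a phosphofructokinase of glycolysis (111 and 54, 2.28). The 12 mitochondrial ribosomal protein genes compared had a median log2 ratio of 0.15, close to that of all genes and below 0 under median and TMM scaling, with *MRPL40* as the only one 2-fold apart and *MRPL22*, the most abundant, at 30319 and 39055 reads (0.860). Of glycolysis and energy genes, *GAPDH* had 40621 and 45063 reads (0.999) and *CKB*, a creatine kinase, 39778 and 47492 (0.928).

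The transport genes *DYNC1LI2*, a light intermediate chain of cytoplasmic dynein (126 and 56 reads, ratio 2.49), and *COMMD1*, of an endosomal sorting complex (102 and 49, 2.31), also were on the type I side. The sister chain *DYNC1LI1* had 72 and 74 reads, under the read minimum, with a ratio of 1.08. The set was completed by the phosducin-like gene *PDCL3*, whose product assists the cytosolic chaperonin (148 and 75 reads, 2.19), *NECAB3*, of an EF-hand protein family (111 and 50.01, 2.46), and by *H-10* (2.64), *KCTD20* (2.54), *FAM199X* (2.33), *TMEM167B* (2.2) and *CCDC15* (2.09). No role is given here for these last 5 genes. Of them *TMEM167B* had most reads, 321 and 162.

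All type I genes other than *ZRSR2* had fewer than 350 reads in either cell, and 24 of the 29 had fewer than 200. Their levels had a median of 13.0 CPM in type I and 5.61 in type II, against 222 and 211 for all genes compared. Together they held 0.0512% of reads in type I and 0.0214% in type II. In whole crista, 27 of the 29 (93.1%) had a higher CPM than in either hair cell, compared with 463 of all 1305 genes (35.5%), and *TMC1* and *ZRSR2* were the exceptions. This went with their low level, since 186 of the 204 genes with under 300 reads (91.2%) also had a higher CPM in whole crista.

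Among the 7 genes of the type II side, 5 had over 1000 reads, near the share among all genes compared (866 of 1305). In whole crista 4 of the 7 had a lower CPM than in either hair cell, as did 796 of all 1305 genes compared, so this was common. *IGFBP4* and *CABIN1* had fewer than 1000 reads and a higher CPM in whole crista, as most type I genes did. *UNC119* (chromosome 19, 6203630 to 6216727) encodes a carrier of lipid-anchored proteins known from photoreceptors. It had 5321 reads in type I and 14669 in type II, 494 and 1228 CPM, and was 2.49-fold higher in type II (2.41 to 2.57). In whole crista it had only 6.47 CPM. Its sister gene *UNC119B* had no read in either hair cell, but was found in whole crista with 4600.5 reads.

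*SYNGR1* (chromosome 1, 50713266 to 50726975), whose product synaptogyrin is a membrane protein of synaptic vesicles, resembled *UNC119* in level. It had 5160.1 and 13676 reads, or 479 and 1145 CPM, and was 2.39-fold higher in type II (2.32 to 2.47). Neither *SYNGR2* nor *SYNGR3* was read in the hair cells. Other genes of vesicle traffic did not differ by as much. Of the 14 vesicle, SNARE and RAB genes compared none was 2-fold apart, the lowest ratio being that of *RAB1B* (10329 and 17130.5 reads, 0.668) and the highest that of *SNX11* (111 and 70.0, 1.76). Their median log2 ratio of 0.20 changed sign with TMM scaling.

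*ST6GAL2* (chromosome 1, 135761670 to 135939339), a Golgi enzyme that adds sialic acid to galactose, had 910.2 reads in type I and 2352 in type II, and was 2.33-fold higher in type II (2.16 to 2.52). The related *ST6GAL1* went the other way, with 6707 and 5467 reads and a ratio of type I to type II of 1.36. Both enzymes were well above the read minimum in each cell, and their ratios lay on opposite sides of 1 under every scaling.

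*FSTL3* (chromosome 28, 3172372 to 3180564) encodes a secreted protein that binds activins. It had 2554 and 5971 reads, and was 2.11-fold higher in type II (2.01 to 2.21). Its relative *FSTL1* had 7017 and 7221 reads (type I to type II 1.08), and *FST*, follistatin itself, none. Of activin ligands and receptors, *ACVR2A*, a type 2 receptor, was abundant in both cells with 18061 and 21052 reads (0.951), and the only ligand gene read was *INHBB*, with 5 and 4 reads.

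*GNG12* (chromosome 8, 28380188 to 28398710), a γ-subunit of heterotrimeric G proteins, had 1807 and 4127 reads and was 2.06-fold higher in type II (1.95 to 2.18). It was the only one of 8 γ-subunit genes in the files that was read in the hair cells, although 6 of the 8 had at least 100 reads in whole crista. Of all 30108 genes, 2340 were read in type I and 2381 in type II, so unread relatives were common. *CABIN1* (chromosome 15, 8130762 to 8224993), whose product binds and inhibits the phosphatase calcineurin, had 232 and 579 reads (2.25, 1.93 to 2.63). None of the 3 calcineurin subunit genes in the files was read in either cell.

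*IGFBP4* (chromosome 27, 4441013 to 4446307), which like *IGFBP5* encodes a protein that binds insulin-like growth factors, had 32 reads in type I and 106 in type II, the former being the fewest reads of any of the 36 genes in either cell, and was 2.99-fold higher in type II (2.0 to 4.59). The binding proteins *IGFBP5* and *IGFBP4* therefore lay on opposite sides, the former with a ratio of 2.11 and the latter of 0.334. The 4 others in the files were unread, like most genes, as were the ligand and receptor genes *IGF1*, *IGF2*, *IGF1R* and *IGF2R*. In whole crista *FSTL3*, *SYNGR1*, *UNC119* and *GNG12* had a lower CPM than in either hair cell, like most genes compared (796 of 1305). *CABIN1* and *IGFBP4* had a higher one.

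**Figure D3:**
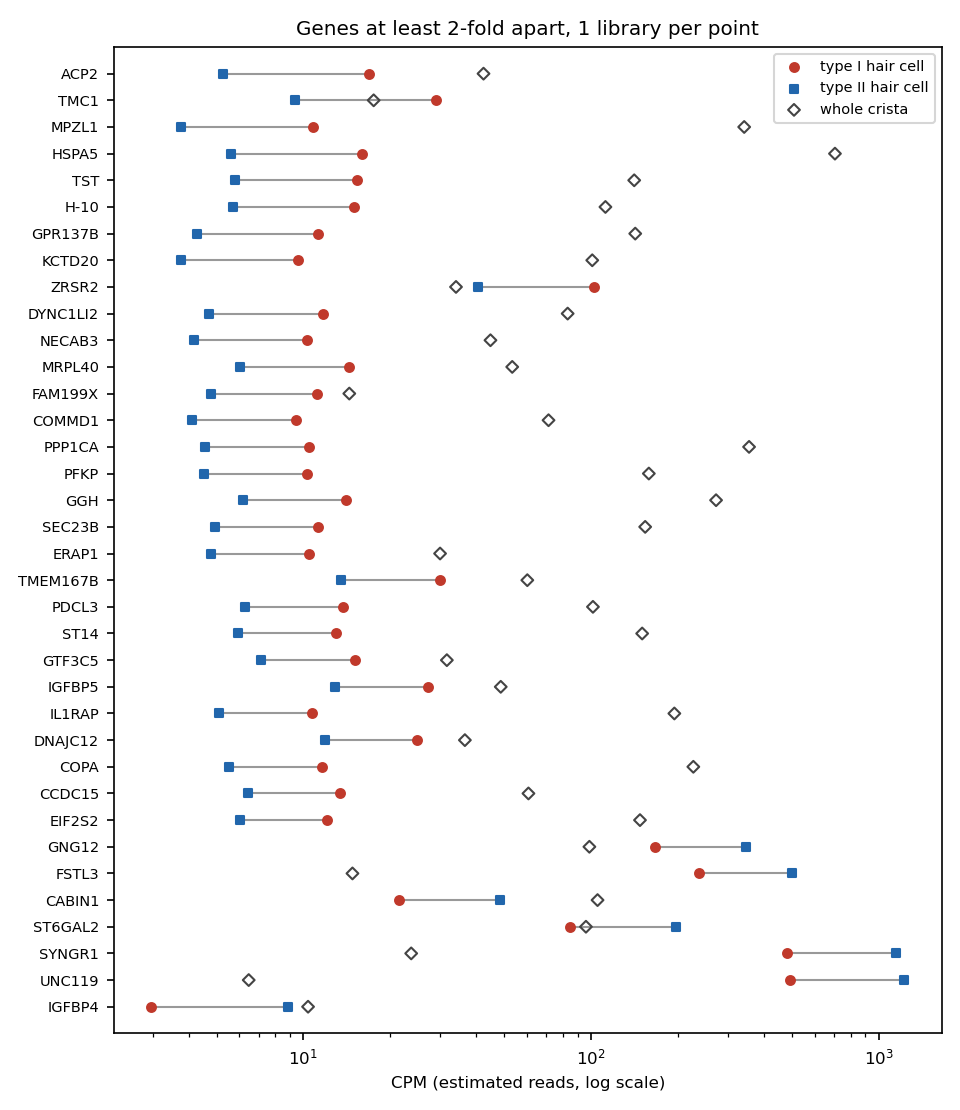
CPM (log axis) of the 36 genes at least 2-fold apart in the type I hair cell (red circles), the type II hair cell (blue squares) and whole crista (diamonds), 1 library per point. Most genes of the type I side lie near 10 CPM in the hair cells and further right in whole crista, while *UNC119*, *SYNGR1*, *FSTL3* and *GNG12* lie above 100 in both hair cells and further left in whole crista.

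Near the threshold, the type I genes just inside were *EIF2S2* (log2 ratio 1.0), *CCDC15* (1.06) and *COPA* (1.07), and those just outside *CTSC* (0.97), *CA8* (0.97) and *EIF5B* (0.93). On the type II side *GNG12* (-1.04), *FSTL3* (-1.08) and *CABIN1* (-1.17) were inside. *PCDHGC3* (-0.999), the histone gene *H3-X* (-0.96) and *RTN4* (-0.96) were outside. *PCDHGC3*, with 1086 and 2406 reads, belongs to a gene cluster whose transcripts share exons, so its reads may not be its own. *RTN4*, a membrane protein that shapes the ER, had 12403 and 26705 reads.

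A minimum of 1000 reads in each cell left 832 genes, which gave no type I gene at 2-fold and the type II genes *UNC119*, *SYNGR1*, *FSTL3* and *GNG12*. At 1.5-fold, 33 and 24 genes were found. The highest ratios of this set were those of *MATR3*, a nuclear matrix protein (3137 and 1880 reads, log2 ratio 0.89), and of the ribosomal protein gene *RPS7* (15264 and 10138, 0.74). After the genes named above, the lowest were *CHKA*, choline kinase (4201 and 8912, -0.94), and *ATP6V0C*, a subunit of the vacuolar proton pump (5651 and 11400 reads, -0.86).

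Some families lay to 1 side by less than 2-fold. Among 60 genes of cytosolic ribosomal proteins, 59 had ratios above 1, against 850 of all 1305, and their median log2 ratio was 0.41, which is 0.25 above the median of all genes and stayed above 0 under every scaling (51 to 59 genes above 1). *RPS3* had 43178 reads in type I and 36259.6 in type II (ratio 1.32), *RPS21* had the highest ratio, with 218 and 127 reads (1.90), and only *RPL3*, with 21141 and 26094 reads (0.898), lay below 1. These genes are short, with a median length of 1509 bases against 3346. Genes shorter than 1500 bases, ribosomal ones included, had a median log2 ratio of 0.33 as a whole.

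Chromatin and histone genes (21 compared, 19 above 1, median log2 ratio 0.48) and nuclear genes of oxidative phosphorylation (34 compared, 27 above 1, median 0.32) also lay above the rest, and their medians stayed above 0 under every scaling. The latter genes were also short (median 1583.5 bases), and their median fell to 0.17 on TPM and 0.10 with TMM factors. The chromatin and histone genes had fewer reads (median of the larger number 802, against 2683 for all genes compared). Of the nuclear genes *NDUFB2* had the highest ratio, with 11099 and 7562 reads (1.63). The mitochondrial genome went the other way. Of its 8 protein-coding genes compared, 7 were lower in type I, led by *COX1* (89856 and 148512 reads, 0.670), *CYTB* (136562 and 210795, 0.718) and *COX3* (303859 and 442609, 0.761), whereas *ND3* had 874 and 612 reads (1.58). The median log2 ratio of this set was -0.32 and stayed below 0 under every scaling. With these genes left out of the totals every log2 ratio shifted by -0.029, and 28 genes were at least 2-fold higher in type I and 8 in type II.

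**Figure D4:**
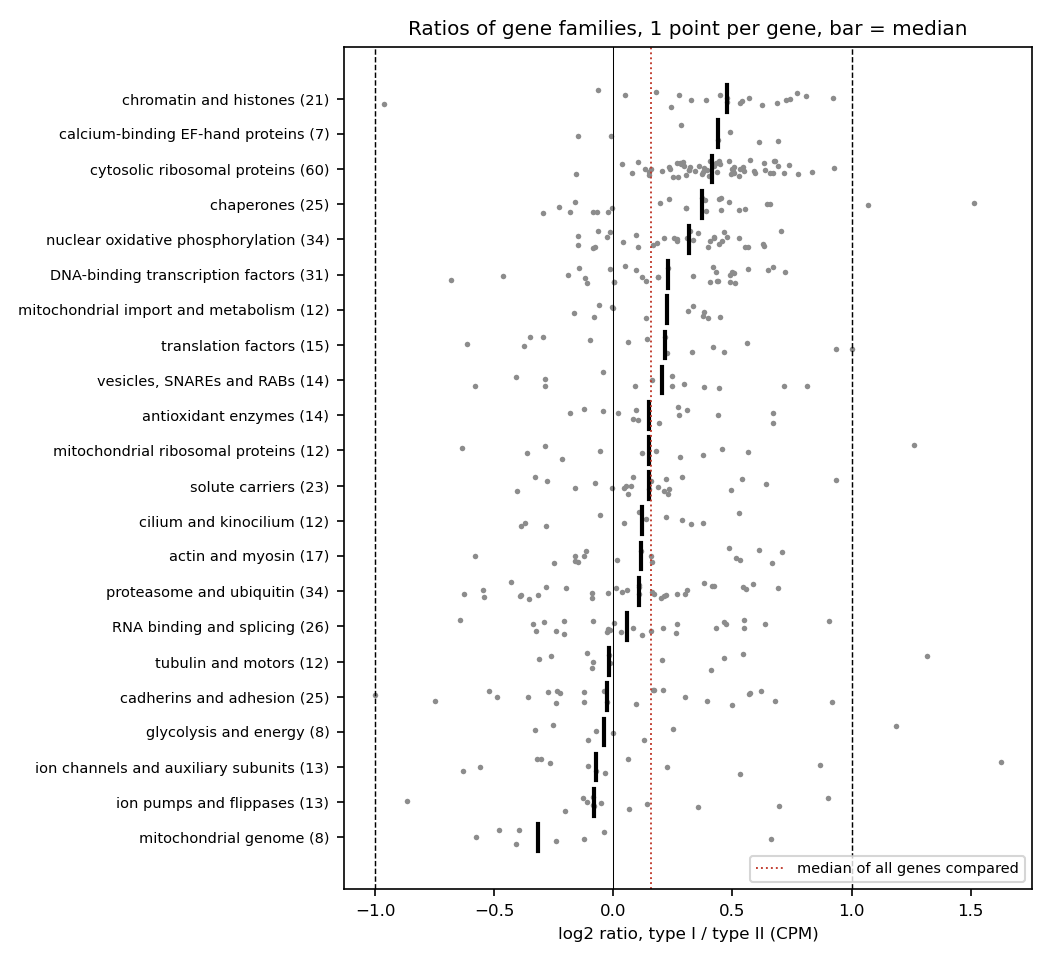
Each point is a gene of a family, with its log2 ratio of type I to type II on CPM; black bars are family medians, numbers in brackets give the genes compared and the dotted line is the median of all 1305 genes, 0.16. Chromatin, EF-hand, ribosomal, chaperone and oxidative phosphorylation genes have medians of 0.32 to 0.48, above 0 under every scaling, and the mitochondrial genome has the lowest median, -0.32, while the families between change sign with the scaling in part.

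Families known for their part in hair cell function lay on either side of the median of all genes, 0.16. The 7 EF-hand genes of the list had a median log2 ratio of 0.44, the value of *OCM1* itself. Actin and myosin genes (17 compared, median 0.11, below 0 under TPM, median, TMM and level scaling) ranged from *ARPC5L* (9339 and 15462 reads, 0.669) to *FSCN2*, a stereocilia actin crosslinker (199 and 135 reads, 1.63). Ion pumps and flippases (13 compared) had a median of -0.081, and solute carriers (23 compared) of 0.15, which fell below 0 under the same 4 scalings. No gene of these 4 lists was 2-fold apart, but the list of EF-hand genes did not hold *NECAB3*.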

How the data were processed

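Patch-seq cDNA of 1 type I and 1 type II hair cell, made with the SMART-Seq v4 kit, and of pooled whole cristae was sequenced. The deposited tables of the authors list, for 30108 genes in every library, an estimated count of reads that need not be whole and is not normalized between libraries, and the TPM, which is scaled by effective gene length and depends on all genes of its library. The submitters' processing notes list bcl2fastq 2.20.0.422 and DRAGEN, with GRCg7b and galGal4 as builds. The pipeline is described for whole crista only.

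Estimated reads were divided by the library total and multiplied by 1000000, without a pseudocount, and type I was divided by type II for genes with a symbol and at least 100 estimated reads in either hair cell. Exact 95% intervals of a ratio of counts (conditional binomial, rounded reads) cover counting error only. A gene was called read with at least 1 estimated read. Values within 0.06 of a whole number of reads in both cells were found for 1220 of the 1305 genes (93.5%) and 34 of the 36 genes 2-fold apart. Positions were taken from the RefSeq annotation of GRCg7b where a symbol matched a single gene, as it did for 1282 of the genes compared. With 1 library a condition no test was made.

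Every gene at least 2-fold apart was named, together with the markers, the 3 genes nearest the threshold on each side, and in each of 36 gene lists the most abundant and the extreme genes, of which only some are printed. The members and lists were chosen with earlier results of these data known, and relatives of the genes 2-fold apart were chosen after their values were seen. Alternatives were other scalings (TPM, totals without mitochondrial genes, the median ratio set to 1, TMM factors, and the median of each of 10 groups by level set to 1), read minimums, folds and gene sets. Symbols borne by several identifiers (14 of the genes compared) were kept. Software was R 4.3.3 with edgeR 4.0.16 (TMM factors alone) and Python 3.11.15 with pandas 2.3.3, scipy 1.17.1, numpy 2.4.6 and matplotlib 3.10.9. Calculations were tested on simulated counts with counting error only and no trend with level. That checks the arithmetic and not how reliable the calls are in these data.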

Additional observations from a re-analysis of the deposited data

How the results depend on the processing

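The median log2 ratio of 0.16 became 0.055 with TPM, 0 with the median or the median of each of 10 level groups set to 1, and -0.056 with TMM factors, which shift every log2 ratio by -0.21. The 29 genes higher in type I and 7 in type II, a split of 80.6% on the type I side, accordingly became 22 and 11 (66.7%) with TPM, 18 and 14 (56.3%) with the median, 13 and 14 (48.1%) with TMM factors and 3 and 23 (11.5%) with the medians of level groups, an alternative chosen after seeing the data. Of these, 21, 18, 13 and 3 belonged to the original 29, and all 7 type II genes were found each time. Median and TMM scaling lower every log2 ratio by a constant, so the 7 could not drop out there. The median, TMM and level-group shifts were all smaller than 2-fold, so they could not reverse a gene 2-fold apart. With TPM none changed direction.

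With a minimum of 10 reads in either cell 173 and 22 genes were found (89% on the type I side), with 50 reads 66 and 8, with 300 reads 3 and 6 (33.3%), with 1000 reads 1 and 5 (16.7%), and with 100 reads in both cells 5 and 6 (45.5%). The share of genes within 2-fold was then 88.2%, 94.8%, 99.2%, 99.3% and 99.1%, and the median log2 ratio under the first 4 minimums 0.23, 0.18, 0.099 and 0.048. A threshold of 1.5-fold gave 178 and 41 genes, 3-fold 2 and 0, and a counting interval wholly beyond 2-fold 6 and 4. All genes with or without a symbol gave 34 and 10, and restriction to protein-coding genes or to symbols of a single identifier left the counts within 1 gene. The cause of these shifts was not tested.

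No paired analysis was possible because each type has 1 library. The counting intervals of the 29 type I genes all excluded 1. This follows from the fold and the read minimum by which these genes were selected, so it adds no evidence for them. Among all genes compared the interval excluded 1 for 83.7%. The lower ends of the intervals of the 29 genes reached down to 1.49, at *EIF2S2*.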

Other observations

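Genes without a symbol, which the comparison left out, held the largest ratios. Of 96 such genes with at least 100 reads in either hair cell, 8 were at least 2-fold apart, 5 higher in type I and 3 in type II. Among the 1305 genes with a symbol the numbers were 29 and 7. ENSGALG00010000318 had 4.3 reads in type I and 333 in type II, a log2 ratio of -6.13, and ENSGALG00010000282 had 176 reads in type I and 7.89 in type II, a log2 ratio of 4.63. In whole crista they had 48.9 and 80.0 reads. Their read numbers were fractional, as estimated counts are where reads match more than 1 gene. Next in size were ENSGALG00010006005 on the type II side (53 and 158 reads, -1.43) and ENSGALG00010029080 on the type I side (113 and 35 reads, 1.84). These are values of 1 cell each.

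The Z chromosome, which male chickens carry in 2 copies, was represented by 36 genes compared, with a median log2 ratio of 0.25 and 29 ratios above 1. Relative to the median of all genes it was 0.093, and 0.038 with TMM factors, with 21 and 19 genes above 1. *TMC1* and *ERAP1* were the only Z-linked genes 2-fold apart.

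Of 22 immediate early and stress genes in the files, 13 had no read in either cell. *JUN* had 4698 and 4835 reads, *HSPA8* 5309 and 5900 and *HSP90AA1* 48759 and 54832 in type I and type II, and *FOS*, *EGR1*, *ATF3* and *DUSP1* had none in either. *ATF4* had 194 and 137 reads (log2 ratio 0.65). Of the 6 genes of this list compared, *HSPA5* was the only one 2-fold apart.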
